A study of Mus musculus with 6 samples.

Results

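Genes that mark the making of new neurons were followed through the hippocampus of APP/PS1 and wild-type (WT) mice at 6 months of age. They are 8 genes: Dcx, Sox11, Sox4, Neurod1, Dpysl3, Igfbpl1, Eomes and Mki67. A gene was taken when a row of the 6 mRNA tables carried exactly its name, which held for 6 of the 8, among 15639 rows in all. Dcx, Sox11, Sox4, Neurod1 and Dpysl3 reached 1 FPKM (fragments per kilobase of transcript and per 1000000 fragments, a level per length) in every library and were tested. Igfbpl1 was listed but reached 1 FPKM in only 2 libraries. No row of the tables used here carried the name Eomes or Mki67, and both are not analysed here.

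Total RNA of frozen hippocampus was sequenced in 6 libraries, of which 3 carry the label WT and 3 the label APP/PS1. The APP/PS1 mice carry the transgenes APP695swe, a Swedish-mutant amyloid precursor protein, and PS1-dE9, a presenilin 1 with an exon deleted, and the WT mice are their control. Both groups share tissue and age, and the labels state neither sex, litter, batch or strain, nor the promoter of the transgenes, nor whether a library is a single animal. The p-values therefore weigh a difference against the spread among libraries alone, and that spread may be technical. In whole-tissue RNA, fewer cells of a type and less RNA per cell cannot be told apart.

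In the adult dentate gyrus, radial glia-like stem cells divide and give rise to intermediate progenitors, which become neuroblasts and then granule neurons. Mki67 is a protein of dividing cells and Eomes a T-box factor of intermediate progenitors. Neurod1 is a basic helix-loop-helix factor of late progenitors and young granule neurons that mature granule neurons keep. Sox4 and Sox11 are SoxC factors of early neuronal differentiation, and Dcx (doublecortin) and Dpysl3 (also CRMP4) are cytoskeletal proteins of migrating and extending young neurons. Igfbpl1 is a secreted relative of the insulin-like growth factor binding proteins seen in neuroblasts. Sox4, Dpysl3 and Neurod1 are also known outside this lineage.

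Dcx and Neurod1 are the members whose libraries did not overlap between the labels, in opposite directions, and their promoter windows are shown for that reason. Each window is 250 bases of RefSeq promoter sequence (GRCm38.p6), 5′ to 3′, both on the minus strand. They are chrX:143933220-143933469 for Dcx, the first of its listed windows, and chr2:79456637-79456886 for Neurod1. The Neurod1 window lies directly before the gene's start. The Dcx window lies partly inside the gene, which is placed at chrX:143855842-143933396, and its TATAAA match lies within those bounds. Capitals mark matches to the E-box CANNTG, the kind of site that basic helix-loop-helix factors bind, or to the TATA box TATAAA, searched on both strands, and the matches do not overlap.
Dcx: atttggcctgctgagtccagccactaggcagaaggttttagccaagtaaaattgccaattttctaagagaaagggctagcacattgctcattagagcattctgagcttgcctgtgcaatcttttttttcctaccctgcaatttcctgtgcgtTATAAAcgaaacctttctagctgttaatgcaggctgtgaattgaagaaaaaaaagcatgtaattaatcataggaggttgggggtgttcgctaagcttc
Neurod1: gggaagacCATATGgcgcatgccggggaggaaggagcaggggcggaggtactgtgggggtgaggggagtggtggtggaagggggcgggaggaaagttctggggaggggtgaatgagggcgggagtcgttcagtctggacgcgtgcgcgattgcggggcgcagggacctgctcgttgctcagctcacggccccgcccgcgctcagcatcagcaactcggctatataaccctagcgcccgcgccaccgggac
The Dcx window held TATAAA 1 time and CANNTG 0 times, and the Neurod1 window held CANNTG 1 time and TATAAA 0 times. Only the exact letters TATAAA were searched. The similar run tatataa near the end of the Neurod1 window was therefore left unmarked. Its count of 0 does not show that the window lacks a TATA box. Among 32817 windows of this length, 66.2% held CANNTG and 12.4% held TATAAA. The Dcx window was 41.6% and the Neurod1 window 67.6% G or C, against a median of 52.4%. In the windows of Sox11 and Sox4 there were 2 and 1 matches to CANNTG, and both windows held CAGCTG. RefSeq windows were found for 6 of the 8 genes and not for Dpysl3 or Igfbpl1. These matches describe the letters only.

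The libraries themselves come first. The sum of FPKM ran from 182355 to 185217 over the libraries, and their sequencing depth is unknown. App, the gene of the amyloid precursor protein, had 69.8, 68.5 and 146 FPKM under the WT label (replicates 1 to 3) and 153, 71.0 and 166 FPKM under the APP/PS1 label. The libraries labelled WT replicate 3 and APP/PS1 replicate 2 thus went against their labels, and Prnp, the prion protein gene, did the same in both. Whether these 2 libraries carry each other's label cannot be told from the files, and every difference below is by label. Each member with a row is also given from the 4 other libraries. Hippocampal neuron genes were present throughout, with Prox1 of granule neurons between 12.7 and 20.0 FPKM and Slc17a7, the vesicular glutamate transporter of excitatory neurons, between 89.5 and 105 FPKM. The share of FPKM from mitochondrially encoded genes was 8.87% to 9.31% under WT and 9.70% to 11.3% under APP/PS1, without overlap, and its part in the differences below was not tested.

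None of the 5 tested members passed an adjusted p of 0.05 between the labels, by limma on log2(FPKM + 1) with Benjamini-Hochberg adjustment over 13700 genes. The share of all genes tested that passed was 0.0219%. At an unadjusted p under 0.05 there were 2 members, Dcx on the higher side and Neurod1 on the lower side in the APP/PS1-labelled libraries, where 6.69% of all genes were under that mark, 2.85% of them on the higher and 3.83% on the lower side. The libraries of the 2 labels did not overlap for these same 2 members. Of all genes tested, 5.38% were without overlap and higher in APP/PS1 and 6.51% without overlap and lower. In the 4 libraries 0 members passed, against 0.197% of all genes, and 1 member, Neurod1, had an unadjusted p under 0.05, against 9.18% of all genes. The 2 libraries left per label did not overlap there for 4 of the 5 members (all but Sox4), as for 41.4% of all genes tested.

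**Figure D1:**
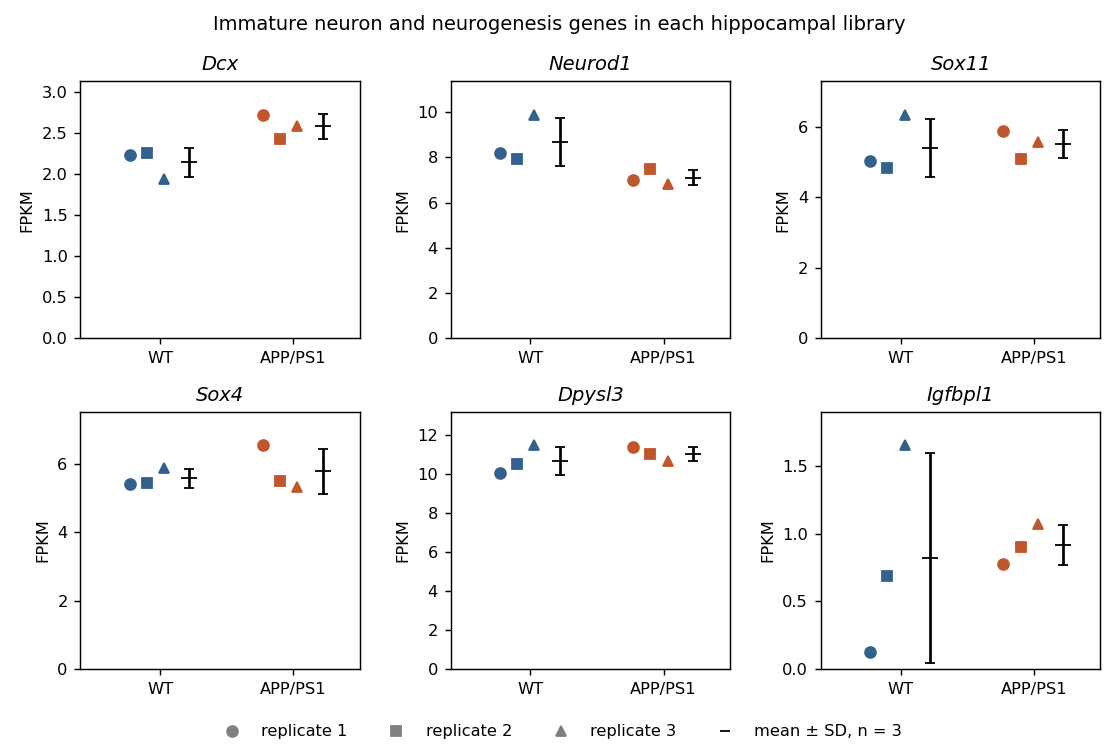
FPKM of the 6 listed genes in each library by label, with the mean ± SD of 3 libraries in black and a marker for each replicate number; every axis starts at 0. The Dcx points of the 2 labels do not overlap (1.94 to 2.26 against 2.43 to 2.73 FPKM), nor do those of Neurod1 (7.94 to 9.88 against 6.82 to 7.47 FPKM), while the other 4 genes overlap.

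The members differed in level, and FPKM allows genes to be set side by side. Over the 6 libraries Dpysl3 averaged 10.9 ± 0.556 FPKM (SD, n = 6 libraries), Neurod1 7.88 ± 1.11, Sox4 5.68 ± 0.464, Sox11 5.45 ± 0.581, Dcx 2.36 ± 0.281 and Igfbpl1 0.868 ± 0.500 FPKM. Dpysl3 was above Neurod1, Neurod1 above Sox4, Sox11 above Dcx and Dcx above Igfbpl1 in 6 of 6 libraries. Sox4 and Sox11 could not be ordered: Sox4 was the higher in 4 of 6 libraries, with a ratio of Sox4 to Sox11 between 0.929 and 1.12. By mean level in the WT-labelled libraries, Dpysl3 stood above 75.4% of the rows, Neurod1 above 69.8%, Sox4 and Sox11 above 56.8% and 55.8%, Dcx above 29.5% and Igfbpl1 above 9.4%. The coefficient of variation over the 6 libraries was 5.12% for Dpysl3, 8.17% for Sox4, 10.7% for Sox11, 11.9% for Dcx and 14.1% for Neurod1, where the median of all genes tested was 9%.

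Dcx encodes doublecortin, a microtubule-associated protein of neuroblasts and young neurons. It stood at 2.23, 2.26 and 1.94 FPKM in WT replicates 1 to 3 and at 2.73, 2.43 and 2.59 FPKM in APP/PS1 replicates 1 to 3. Every APP/PS1-labelled library lay above every WT-labelled library, and the lowest value was in WT replicate 3. The means were 2.14 ± 0.178 and 2.58 ± 0.148 FPKM (SD, n = 3 per label), 20.4% higher in FPKM. The log2 difference on log2(FPKM + 1) was 0.19 with a standard error of 0.08 and a 95% interval from 0.0049 to 0.37 (limma, unadjusted p = 0.0455, adjusted p = 0.741). The exact two-sided permutation test gave p = 0.1, the smallest that 3 against 3 libraries allow. In the 4 libraries the difference was 0.17 (limma adjusted p = 0.624).

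Neurod1 differed in the other direction. It stood at 8.19, 7.94 and 9.88 FPKM in WT replicates 1 to 3 and at 6.99, 7.47 and 6.82 FPKM in APP/PS1 replicates 1 to 3. Every APP/PS1-labelled library lay below every WT-labelled library, and WT replicate 3 stood above all others. The means were 8.67 ± 1.06 and 7.10 ± 0.337 FPKM, and the mean under APP/PS1 differed from that under WT by -18.2%. The log2 difference was -0.25 with a standard error of 0.09 and an interval from -0.45 to -0.05 (limma, unadjusted p = 0.0216, adjusted p = 0.679; exact two-sided permutation p = 0.1). Without the library labelled WT replicate 3 it was -0.16 (adjusted p = 0.535), and in the 4 libraries -0.20 (adjusted p = 0.510).

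The SoxC pair gave no difference between the labels that stood out from the spread. Sox11 stood at 5.02, 4.84 and 6.34 FPKM under WT and at 5.87, 5.07 and 5.57 FPKM under APP/PS1. The groups overlapped, with both the lowest and the highest value under the WT label. The difference was 0.03 on the log2 scale with an interval from -0.21 to 0.27 (limma adjusted p = 0.975). In the 4 libraries the Sox11 difference was 0.18 (adjusted p = 0.560), against 0.03 in 6 libraries, and there the labels did not overlap. Sox4 stood at 5.41, 5.44 and 5.89 FPKM under WT and at 6.54, 5.50 and 5.32 FPKM under APP/PS1. The lowest and the highest value were both under the APP/PS1 label, and the difference was 0.04 with an interval from -0.16 to 0.24 (adjusted p = 0.963), or 0.10 in the 4 libraries (adjusted p = 0.797). Neither interval shows that the gene is equal under both labels.

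Dpysl3 encodes a collapsin response mediator protein, which links guidance signals to the growth cone's cytoskeleton. It stood at 10.0, 10.5 and 11.5 FPKM under WT and at 11.4, 11.0 and 10.7 FPKM under APP/PS1. The groups overlapped, with both the lowest and the highest value under WT, and the gene varied less between libraries than the other members tested. The difference was 0.05 with an interval from -0.10 to 0.20 (limma adjusted p = 0.936), and 0.10 in the 4 libraries (adjusted p = 0.712), where the labels did not overlap.

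Igfbpl1 lay near the lower end of the table. It stood at 0.124, 0.690 and 1.65 FPKM in WT replicates 1 to 3 and at 0.774, 0.898 and 1.07 FPKM in APP/PS1 replicates 1 to 3. The WT-labelled libraries held both extremes, 13.3-fold apart, and enclosed all APP/PS1-labelled libraries. The gene did not reach 1 FPKM in the 3 libraries asked for and was not tested with the others (exact two-sided permutation p = 0.7). Its difference on log2(FPKM + 1) was 0.16 in 6 libraries and 0.48 in the 4 libraries, where the labels did not overlap, and -0.15 without WT replicate 1. The lowest row maximum in the table was 0.529 FPKM, so a gene below that level in every library would have no row.

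**Figure D2:**
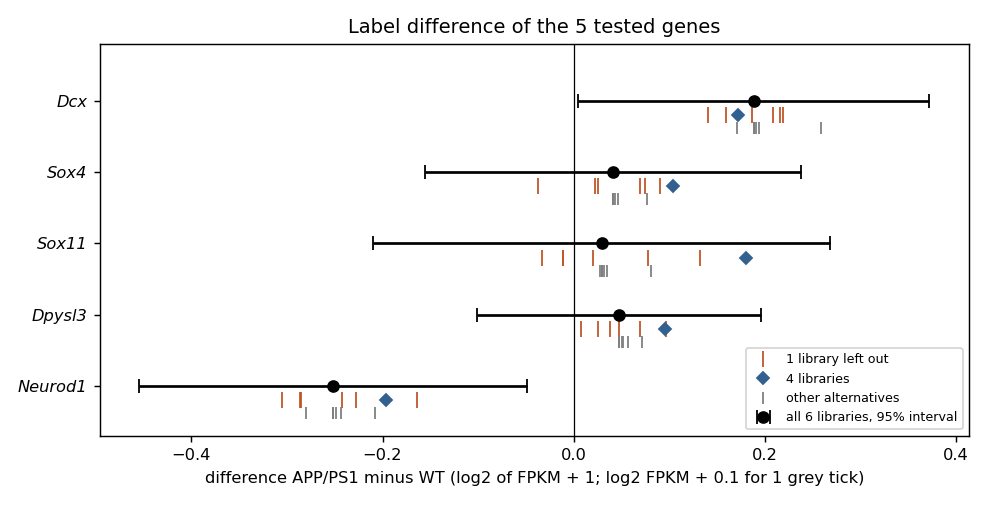
Difference between the labels for the 5 tested genes (x axis, log2 units, APP/PS1 minus WT): black points with 95% intervals for all 6 libraries, orange ticks with 1 library left out, blue diamonds for the 4 libraries, grey ticks for other alternatives. Dcx stays above 0 (0.14 to 0.26) and Neurod1 below 0 (-0.31 to -0.16) in each of 15 alternatives, and Sox11 and Sox4 cross 0. The libraries of Dcx and Neurod1 do not overlap between the labels, so leaving libraries out could not change their direction.

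Across libraries the members did not share a profile. Profiles were compared as the root-mean-square distance between log2(FPKM + 1) values centred on each gene's mean over the 6 libraries, where 0 means an identical profile. Sox4 and Dpysl3 were the nearest pair at 0.0607, and Sox11 was nearest to Dpysl3 at 0.0797. Dcx was nearest to Sox4 at 0.125, and Neurod1 was nearest to Dpysl3 at 0.162, the widest of these distances. The distance also grows with the spread of either gene, and Dpysl3 varied least of the tested members. A nearest gene by this measure need not have the most similar shape across libraries. Sox11, Sox4, Dpysl3 and Neurod1 all stood above their means in WT replicate 3, by 0.191, 0.047, 0.074 and 0.302, whereas Dcx stood below its mean there, at -0.19. Among all genes tested that carry a symbol, the nearest to Dcx were Trnp1 at 0.0186, Tab3 at 0.0302 and Sytl2 at 0.0309. Trnp1, a nuclear protein gene known from cortical progenitors, stood at 37.9, 39.6 and 34.7 FPKM under WT and at 44.4, 40.4 and 41.9 FPKM under APP/PS1. These distances rest on 6 libraries and a search over all genes, and they are descriptions.

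Other genes of the lineage and its niche were then set beside the members, from lists drawn up by stage and role. Together with the lists of other cell types and of hippocampal neurons, they hold 189 genes besides the members, of which 155 were tested. Of these, 0 passed an adjusted p of 0.05 by limma, while 6 on the higher and 6 on the lower side had an unadjusted p under 0.05, together 7.74% of them against 6.69% of all genes. Most of those on the higher side, Sox10, Kcne2, Folr1 and Snap25, are not from the lineage and niche lists, and neither is Aif1 on the lower side. The share is therefore not one of the lineage and niche alone. The labels did not overlap for 18 of the 155, or 11.6%, against 11.9% of all genes. In the 4 libraries 0 genes of any list passed by limma, against 0.197% of all genes. There 16 of the 155 had an unadjusted p under 0.05, against 9.18% of all genes. The medians below are log2 differences, and that of all genes tested was -0.001.

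Upstream of the members, 16 of 17 stem cell and radial glia-like genes were tested, 6 positive and 10 negative, with a median of -0.039. Many of them are shared with astrocytes. Hes5, a Notch target that keeps stem cells from differentiating, stood at 4.48, 1.29 and 3.12 FPKM under WT and at 5.09, 4.72 and 5.70 FPKM under APP/PS1, without overlap (log2 difference 0.72, limma adjusted p = 0.760). Of these values only that of WT replicate 2 was below 2 FPKM. Sox2, a stem cell factor, averaged 18.1 ± 1.37 and 19.4 ± 0.806 FPKM, and Nes, an intermediate filament of stem cells, 2.19 ± 0.225 and 2.10 ± 0.187 FPKM.

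Genes of cell division were thinly represented, as Mki67 was. Of 24 such genes 13 had no row in the tables used here, among them Top2a and Cdk1, and 3 more lay under the filter. The 8 tested had a median of -0.084, 2 positive and 6 negative. Cdk4, a G1 kinase, averaged 6.78 ± 0.386 FPKM under WT and 6.20 ± 0.564 FPKM under APP/PS1. Pcna, the sliding clamp of DNA replication and repair, averaged 8.56 ± 1.27 and 8.94 ± 1.14 FPKM. These genes are also used outside division.

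At the stage of Eomes, Neurog2 had no row and Mfng lay under 1 FPKM in every library. Insm1, a zinc finger factor of intermediate progenitors and neuroendocrine cells, stood at 2.22, 2.19 and 1.87 FPKM under WT and at 2.40, 2.99 and 2.67 FPKM under APP/PS1. As for Dcx, the labels did not overlap and the lowest value was in WT replicate 3 (log2 difference 0.25, limma unadjusted p = 0.0266, adjusted p = 0.696). The Insm1 difference in the 4 libraries was 0.14 (adjusted p = 0.701). Mfap4, the other gene of this list that was tested, overlapped between the labels (log2 difference -0.015, limma adjusted p = 0.991).

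Other immature neuron genes were mixed in direction. Of 14 tested, 8 were positive and 6 negative, with a median of 0.025 and 0 at an unadjusted p under 0.05. Stmn2, a microtubule-destabilising protein of growing axons, averaged 30.3 ± 1.05 and 32.6 ± 1.12 FPKM without overlap (log2 difference 0.10, limma adjusted p = 0.797). Marcksl1, an actin-regulating relative of MARCKS, averaged 31.6 ± 5.93 and 25.1 ± 3.10 FPKM (log2 difference -0.31). Several of these genes, Stmn2 among them, are also expressed by mature neurons.

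Relatives of the members from the same protein families ranged from 3.64 FPKM for Dpysl5 to 162 FPKM for Dpysl2, both means under WT. Of 11 tested, 2 were positive and 9 negative, with a median of -0.048. Neurod2 and Neurod6, relatives of Neurod1 that mature excitatory neurons also express, averaged 40.6 ± 1.51 and 53.6 ± 1.08 FPKM under WT and 38.9 ± 1.29 and 53.6 ± 1.06 FPKM under APP/PS1. Sox12, the other SoxC gene, averaged 5.59 ± 0.516 and 5.46 ± 0.478 FPKM, close to Sox4 and Sox11. Dpysl5 (CRMP5) stood at 3.33, 3.62 and 3.97 FPKM under WT and at 2.02, 1.82 and 3.63 FPKM under APP/PS1. Its APP/PS1 replicate 3 lay within the WT range (log2 difference -0.44, unadjusted p = 0.0474, limma adjusted p = 0.741). The Dpysl5 difference in the 4 libraries was -0.26 (unadjusted p = 0.289).

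Downstream of the members, the mature dentate granule genes lay on the same side as Neurod1. Of 10 genes 9 were tested and all 9 were negative, as were 6906 of all 13700 genes, with a median of -0.272 in 6 libraries and -0.143 in the 4 libraries, though 0 passed and 1, Lct, had an unadjusted p under 0.05. In the 4 libraries 7 of the 9 were negative, while Trpc6 was at 0.10 and Stxbp6 at 0.20 (limma unadjusted p = 0.0228 for Stxbp6, adjusted p = 0.505). The smallest p of the list there was that of Dsp, at -0.80 (limma unadjusted p = 0.00274, adjusted p = 0.273). Npnt, an extracellular matrix protein, stood at 3.07, 3.34 and 5.31 FPKM under WT and at 2.57, 2.86 and 2.69 FPKM under APP/PS1, without overlap (log2 difference -0.38, or -0.21 in the 4 libraries). Prox1, the granule cell factor, stood at 15.5, 14.4 and 20.0 FPKM and at 14.2, 13.7 and 12.7 FPKM. The summed level of the 10 genes was 101, 106 and 134 FPKM under WT and 98.6, 92.6 and 91.4 FPKM under APP/PS1. WT replicate 3 was highest for this sum, for Prox1 and for Neurod1, and without that library the labels still did not overlap for any of them. How far the level of granule neuron RNA takes part in the difference of Neurod1 was not tested.

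**Figure D3:**
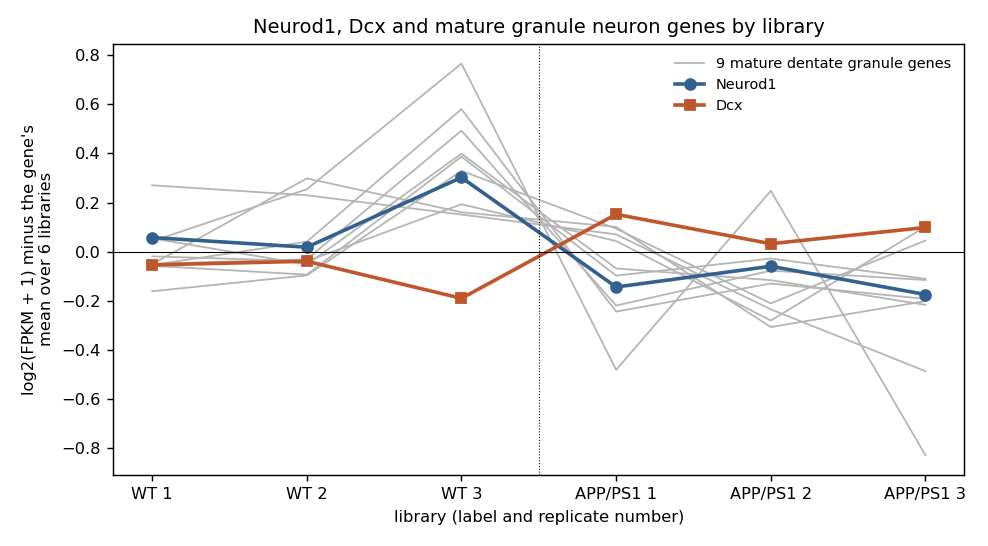
Neurod1 (blue), Dcx (orange) and the 9 tested mature dentate granule genes (grey) in the 6 libraries, as log2(FPKM + 1) minus the gene's own mean; each line joins the values of 1 gene and the libraries have no order within a label. Neurod1 peaks in WT replicate 3 at 0.302, where the median of the grey genes is 0.387, while Dcx is lowest there at -0.19.

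Signals of the neurogenic niche were grouped by role. Of 15 ligands 10 were negative, with a median of -0.082. Bdnf, a neurotrophin that aids the survival of young neurons, stood at 5.79, 5.99 and 6.31 FPKM under WT and at 4.74, 4.06 and 4.70 FPKM under APP/PS1 (limma adjusted p = 0.405). Bmp6, a BMP ligand, stood at 5.61, 5.77 and 5.60 FPKM and at 4.43, 5.09 and 3.61 FPKM (adjusted p = 0.643). Both were without overlap. Bmp2, Bmp4 and Wnt3 were listed under the filter, and Shh had no row.

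Of 14 receptors 8 were negative, with a median of -0.02. Fgfr1, a receptor for fibroblast growth factors, stood at 11.6, 12.2 and 12.4 FPKM under WT and at 9.66, 11.2 and 10.6 FPKM under APP/PS1, without overlap (limma adjusted p = 0.696). Of 7 secreted antagonists 5 were positive, with a median of 0.171 in 6 libraries and 0.07 in the 4 libraries. Sostdc1, an antagonist of BMP and Wnt that choroid plexus also makes, stood at 20.1, 17.0 and 19.9 FPKM and at 28.5, 23.7 and 25.6 FPKM (adjusted p = 0.367). Noggin (Nog), a BMP antagonist, averaged 3.20 ± 0.218 and 3.76 ± 0.707 FPKM with overlap. The summed level of choroid plexus and ependyma markers was 856 to 1199 FPKM under WT and 1099 to 1380 FPKM under APP/PS1, and most of it was Ttr, the thyroid hormone carrier transthyretin (806 to 1143 and 1050 to 1321 FPKM). Of the less abundant markers, Kcne2, a potassium channel subunit, stood at 5.13, 6.74 and 4.97 FPKM under WT and at 8.10, 7.20 and 7.26 FPKM under APP/PS1. Folr1, a folate receptor, stood at 3.66, 4.78 and 3.42 FPKM and at 4.91, 5.99 and 5.03 FPKM. Both were without overlap and higher under APP/PS1, as Sostdc1 was (log2 differences 0.37, 0.35 and 0.43), and their part in the value of Sostdc1 was not tested. Kcne2 and Folr1 do not stand for the whole list of markers. Of its 10 genes tested, 7 were positive and 3 negative, with a median of 0.137. The 11 nuclear effectors had a median of 0.029, with 0 at an unadjusted p under 0.05.

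**Figure D4:**
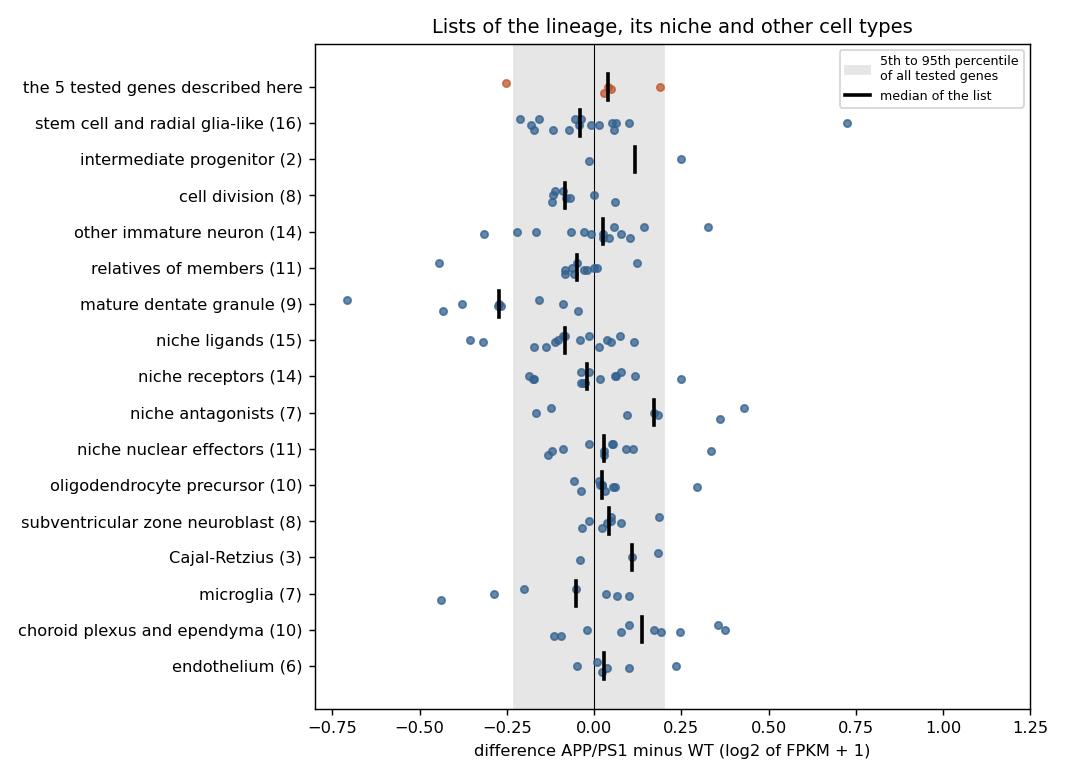
Log2 difference between the labels (x axis, APP/PS1 minus WT) for each tested gene of the lists (1 point per gene, number tested in brackets), with the median of the list as a black bar and the 5th to 95th percentile of all tested genes in grey. The values are from all 6 libraries: the mature dentate granule genes all lie below 0 (median -0.272; -0.143 in the 4 libraries, where 2 of the 9 lie above 0), while the 5 tested members lie on both sides (median 0.041).

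Markers of other cells that could carry these genes were measured in the same libraries. Oligodendrocyte precursors divide in adult brain, and their 10 markers summed to 110 to 117 FPKM under WT and 111 to 124 FPKM under APP/PS1. Only Sox10, which mature oligodendrocytes also express, had an unadjusted p under 0.05 among them (log2 difference 0.29, limma adjusted p = 0.566). Markers of subventricular zone neuroblasts, also known for Dcx and shared with interneurons, summed to 18.1 to 23.1 and 19.6 to 22.8 FPKM. The Cajal-Retzius markers with a row summed to 10.9 to 11.4 and 10.5 to 12.4 FPKM, while Lhx1, Lhx5 and Nhlh2 had no row. Microglia markers summed to 92.5 to 98.9 and 91.2 to 101 FPKM, and endothelial markers to 30.5 to 32.4 and 30.5 to 35.6 FPKM. All of these sums overlapped between the labels, and none of the 168 listed genes stood at 0 in any library. Their part in the values of Dcx, Sox4 or Sox11 was not tested.

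Circular RNAs of the members were looked for by position. Of 2246 circular RNAs, 257 had coordinates while the other 1989 carried a number from a database and could not be paired with a gene here. Although the submitters' processing notes list mm9, 98.8% of the coordinates lay inside a GRCm38.p6 gene, against 31.5% after a shift of 1000000 bases. None of the 257 overlapped any of the 8 genes in that annotation.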

How the data were processed

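Gene levels deposited by the authors were read as FPKM. No header names the unit: values with decimals, library sums far under 1000000 and the listing of StringTie led to it. The submitters' processing notes list FastQC, HISAT2, StringTie and mm9 without role or version. The circRNA tables deposited by the authors hold whole-number read counts, and their caller is not stated in the labels. Ratios of low FPKM between WT replicates 1 and 2 did not repeat (the most common was shared by 5 of 596 rows), so whole reads could not be recovered and no count test was run. The test took the 13700 genes that reached 1 FPKM in 3 or more libraries, on log2(FPKM + 1), with limma 3.58.1 (R 4.3.3; trend and robust settings), the label being the only term. This scale understates changes of low genes. Adjustment was by Benjamini-Hochberg over all genes tested, at a threshold of 0.05. Single values were compared by exact two-sided permutation. The script was tested on simulated data. TMM factors came from edgeR 4.0.16.

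The members and lists were chosen with earlier results of these data known. Besides the members, the text names up to 4 genes of each list by smallest unadjusted p, App and Prnp, and the 3 nearest profiles to Dcx. Sox2, Nes, Pcna, Nog, Sox12, Neurod2, Neurod6, Slc17a7, Prox1, Dpysl2 and genes without a row or under the filter were named for their role, and Trpc6, Stxbp6, Ttr, Kcne2 and Folr1 after their values were seen. 22 rows whose name is a date were not named. Alternatives were another pseudocount, other filters, TMM or quantile scaling, other limma settings, a replicate block, each library left out, and 4 libraries.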

Additional observations from a re-analysis of the deposited data

How the results depend on the processing

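0 members passed an adjusted p of 0.05 in any of the 15 alternatives. Dcx kept its direction in all 15 (0.14 to 0.26, limma adjusted p from 0.589 to 0.9998), as did Neurod1 (-0.31 to -0.16, adjusted p from 0.510 to 0.9998). Dpysl3 did so too (0.0079 to 0.096). For Dcx and Neurod1, whose libraries did not overlap, most of these settings were no test of direction. Leaving libraries out, other filters and other limma settings could not change it. Sox11 turned to -0.011 or -0.033 when replicate 1 or 2 labelled WT was left out, and to -0.011 when replicate 1 labelled APP/PS1 was, within a range of -0.033 to 0.13 over single libraries left out. Sox4 turned to -0.037 without APP/PS1 replicate 1, within -0.037 to 0.0903.

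The number of members at an unadjusted p under 0.05, 2 with all libraries, was 1 with array weights, 1 with the replicate block and 1 in the 4 libraries, and 0 to 1 with 1 library left out. Dcx was under that mark in 6 of the 15 alternatives and Neurod1 in 13. The number of all genes past an adjusted p of 0.05, 3 with all libraries, was 5 with array weights, 1 with the replicate block and 27 in the 4 libraries, and 2 to 30 with 1 library left out. The cause of these changes was not tested. The replicate block changed no other call. Same-numbered libraries did not deviate together (correlations of 0.01, -0.056 and -0.094 for replicates 1 to 3, across genes), so the numbers were not taken as pairs. Where an arm was reduced, limma pooled the spread over all genes. Scaling moved the median of all genes by less than 0.1. Depth is unknown, so counting error at the level of Dcx or Igfbpl1 could not be given.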

Other observations

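The ratio of Dcx to Neurod1 within a library, chosen after their values were seen, was 0.272, 0.285 and 0.196 in WT replicates 1 to 3 and 0.390, 0.325 and 0.380 in APP/PS1 replicates 1 to 3. The labels did not overlap, and the library labelled APP/PS1 replicate 2, where App was low, lay nearest to the WT-labelled libraries. The library labelled WT replicate 3, where App was high, lay farthest from the APP/PS1-labelled ones. Both genes were picked for opposite differences, so the separation is a description and was not tested.

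Insm1 and Dcx both stood lowest in WT replicate 3, and Neurod1, Sox11, Igfbpl1 and Dpysl3 all stood highest in that library. These are values of 1 library, and their cause was not tested.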
